A study of Mus musculus with 12 samples.

Results

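The respiratory chain genes described here are 97 genes, of 36528 in the count table, that encode subunits of complexes I to V. The 13 proteins of the mitochondrial chromosome were taken whole, and 84 protein-coding nuclear genes were chosen by symbol (Nduf subunits, Sdha to Sdhd, Uqcr, Cox4 to Cox8 and Atp5 genes). Subunit genes whose symbols do not match, such as Ndufab1, are left out, so counts per complex are of the chosen genes. Whole-liver RNA was sequenced from 12 mice. Over 6 weeks 6 of them were given CCl4 (carbon tetrachloride), which hepatocyte P450 enzymes make into a radical that injures the liver and leaves it scarred, and the other 6 the corn oil vehicle, in both cases 3 times a week into the peritoneum. Strain, sex and age are not stated in the labels used here. The comparison asks how the RNA of the chronically injured liver differs from that of the oil-injected liver.

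The respiratory chain passes electrons from NADH (complex I) and succinate (complex II) through complex III to oxygen at complex IV, and the proton gradient it builds drives ATP synthase, complex V. Its subunits come from both genomes: the mitochondrial chromosome is transcribed inside the organelle as long precursors that are cut into gene-length RNAs, while the other subunits, and all of complex II, are made from nuclear genes and imported. Hepatocytes are rich in mitochondria, so whole-liver RNA holds much of this RNA.

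RNA of the mitochondrial chromosome was lower after CCl4, whereas most nuclear subunit genes did not pass the test. Of the 12 mitochondrial genes tested, 11 fell and 0 rose, with a median log2 fold change of -0.94. The counts were also 11 and 0 at an unadjusted p of 0.05, with DESeq2 and with limma-voom. All 7 with means over 10 CPM fell (median -0.97). The other 5 tested, of which 4 fell, had means under 2 CPM that cannot be read as levels of their RNA. Of the 81 nuclear genes tested, 6 fell (Sdha, Ndufa10, Ndufs1, Atp5a1, Atp5b and Uqcrc1) and 3 rose, with a median of 0.20. All 3 that rose (Cox6a2, Cox4i2 and Cox6b2) encode tissue isoforms of complex IV and had low levels. Cox6a2 and Cox4i2 passed the filter on low counts only through the CCl4 group, so that their calls are no support for a rise. A filter of 50 counts in 6 libraries removed all 3 before testing, and 0 nuclear genes rose in that fit. Over all 16032 genes tested, 39.0% were called (20.6% risen and 18.4% fallen), with a median of 0.01. The test was edgeR's quasi-likelihood test with Benjamini-Hochberg adjustment over all genes tested, at 0.05. In whole liver fewer cells of a type and less RNA per cell cannot be told apart. The labels number the samples separately but do not describe how the animals were kept or handled, so the p-values measure the spread between these samples, which may be partly technical.

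Total counts ran from 43027778 to 70375852 per library. Levels are CPM (counts per 1000000) after TMM scaling. The summed level of 10 hepatocyte markers overlapped between the groups (108900 to 150600 CPM in oil, 103900 to 155100 CPM in CCl4), but most of it was Alb, at means of 78000 and 77100 CPM. Of the 10 markers 4 fell (Tat -1.62, Hnf4a -1.05, Apoa2 -0.65 and Cps1 -0.54 on the log2 scale) and Ahsg rose (0.59), with a median of -0.17. The summed level of stellate and mural cell markers ran from 69.6 to 138 CPM in oil and from 403 to 585 CPM in CCl4, and that of macrophage markers from 222 to 338 CPM and from 612 to 1131 CPM. Their part in the results below was not tested. Libraries also differed in how their levels depended on transcript length. The slope of log2 CPM on log2 transcript length over genes was lowest, so that short transcripts stood relatively high, in CCl4 livers 6, 2 and 4 (-0.0009, 0.10 and 0.14) and in oil liver 5 (0.16). In the other 8 livers it ran from 0.28 to 0.47. This matters here because the 84 nuclear subunit genes had short transcripts, with a median of 731.5 bases against 2796 bases over all genes tested.

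The mitochondrial genes fell into 2 sets by level. ND1, ND2, ND4, ND5, ND6, CYTB and COX1 had means from 1898 to 11040 CPM over the 12 livers, and COX2, ATP6, ATP8, COX3, ND3 and ND4L had means under 2 CPM. Per kilobase in oil, the first 7 ran from 2302 CPM (ND5) to 12259 CPM (CYTB), and the highest nuclear subunit gene, Atp5g3, stood at 688 CPM. The first 90 bases of ND3 and of its nuclear copy Gm28438, on chromosome 1 of GRCm38, are shown here because COX2, ATP6, COX3, ND3 and ND4L each share nearly all of their 50-base stretches with copies of this kind. Both stretches begin at the start of ND3 and are read 5′ to 3′ on the strand of the gene (MT:9459-9548, plus strand, and chr1:24613030-24613119, minus strand), from the GENCODE M21 transcripts, and the capital marks the position at which they differ, T3C counted from the first base.
ND3: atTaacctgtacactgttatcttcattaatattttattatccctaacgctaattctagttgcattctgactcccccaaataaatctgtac
Copy of ND3: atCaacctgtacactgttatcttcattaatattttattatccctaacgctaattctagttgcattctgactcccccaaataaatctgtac
Over 345 bases ND3 and its copy differed at 1 position (99.71% identity). COX2 was identical to Gm28661 over 681 bases, ATP6 to Gm10925 over 678 bases and COX3 to Gm28437 over 783 bases.

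The share of 50-base stretches found in another gene was 98.0% to 100% for COX2, ATP6, COX3, ND3 and ND4L, 62.2% for ND4, 51.1% for COX1 and at most 8.19% for ND1, ND2, ND5, ND6 and CYTB. ATP8, with a mean under 1 CPM, shared 0%. On the mitochondrial chromosome it lies between COX2 and ATP6, and the stretch between their copies on chromosome 1 is in no annotated gene and was not analysed here. The treatment of reads that match more than 1 place is not given in the sources used here. The levels of the 6 low genes therefore cannot be read as levels of their RNA, and reads of COX1 and ND4 may be missing in part. Among nuclear subunit genes, 11 shared at least 25% of their stretches with other loci. Atp5g2 (87.4%), a c-ring gene, Atp5l (68.5%), a small membrane subunit of ATP synthase, and Cox7c (53.0%), a common complex IV subunit, had means below 1.5 CPM. Of these 11 genes, 0 passed the test with edgeR, at an unadjusted p of 0.05, with DESeq2 or with limma-voom (median log2 fold change 0.17).

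**Figure D1:**
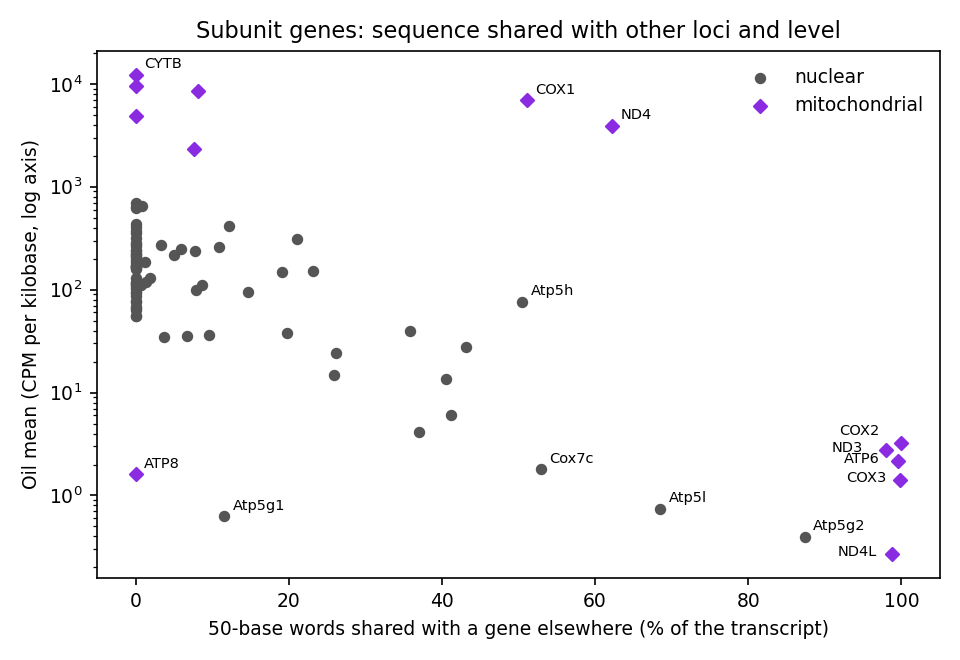
Each point is a subunit gene, tissue isoforms of complex IV left out. The x axis is the share of its 50-base stretches found in another gene (%), and the y axis, a log axis, is the oil mean in CPM per kilobase. COX2, ATP6, COX3, ND3 and ND4L lie at 98.0% to 100% and under 4 CPM per kilobase, and ATP8 lies at 1.62 CPM per kilobase and 0%.

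Within the 7 well-counted mitochondrial genes every gene fell, and in 6 of them no CCl4 liver reached the range of the oil livers. Over all genes tested, 8.03% had all 6 CCl4 livers below all 6 oil livers. ND5, a membrane subunit of complex I (MT:11742-13565), had the largest difference of the 7. It ran from 2550 to 5576 CPM in oil, with a median of 4657 CPM, and from 766 to 1751 CPM in CCl4, with a median of 1322 CPM. The groups did not overlap, and the fitted change was 3.25-fold lower (log2 fold change -1.70 ± 0.26 SE, adjusted p = 0.000175). Within CCl4, livers 2, 4 and 6, the ones rich in short transcripts, had 998, 936 and 766 CPM, and livers 1, 3 and 5 had 1645, 1751 and 1656 CPM.

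ND1, at the head of the chromosome and also a membrane subunit of complex I (MT:2751-3707), ran from 7391 to 10568 CPM in oil (median 9244 CPM) and from 4305 to 5372 CPM in CCl4 (median 4508 CPM). All CCl4 livers lay below all oil livers, with a log2 fold change of -0.97 ± 0.12 (adjusted p = 2.13e-05). ND2 (MT:3914-4951) ran from 6267 to 10069 CPM in oil and from 2829 to 4552 CPM in CCl4, without overlap (log2 fold change -1.22 ± 0.16, adjusted p = 4.31e-05). ND6, the only one of the 13 read from the other strand (MT:13552-14070), ran from 1752 to 2943 CPM and from 1090 to 1475 CPM, again without overlap (-0.95 ± 0.15, adjusted p = 0.000158). Its span overlaps the end of ND5, and the use of strand in counting is not given in the sources used here. ND4 (MT:10167-11544) was the exception in overlap: CCl4 livers 1 and 5, at 4208 and 3969 CPM, stood above oil liver 5, at 3398 CPM. Its median went from 5785 to 2383 CPM, with a log2 fold change of -0.93 ± 0.22 (adjusted p = 0.00428).

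COX1, the catalytic subunit of cytochrome c oxidase (MT:5328-6872), ran from 8508 to 12316 CPM in oil, with a median of 10900 CPM, and from 3118 to 5576 CPM in CCl4, with a median of 4581 CPM. The groups lay apart, and the level was 2.36-fold lower (log2 fold change -1.24 ± 0.17, adjusted p = 5.23e-05). CYTB, the cytochrome b of complex III (MT:14145-15288), had the smallest difference of the 7. Its oil livers ran from 10283 to 16508 CPM and its CCl4 livers from 6817 to 10181 CPM, a narrow gap, with a log2 fold change of -0.80 ± 0.15 (adjusted p = 0.000726).

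**Figure D2:**
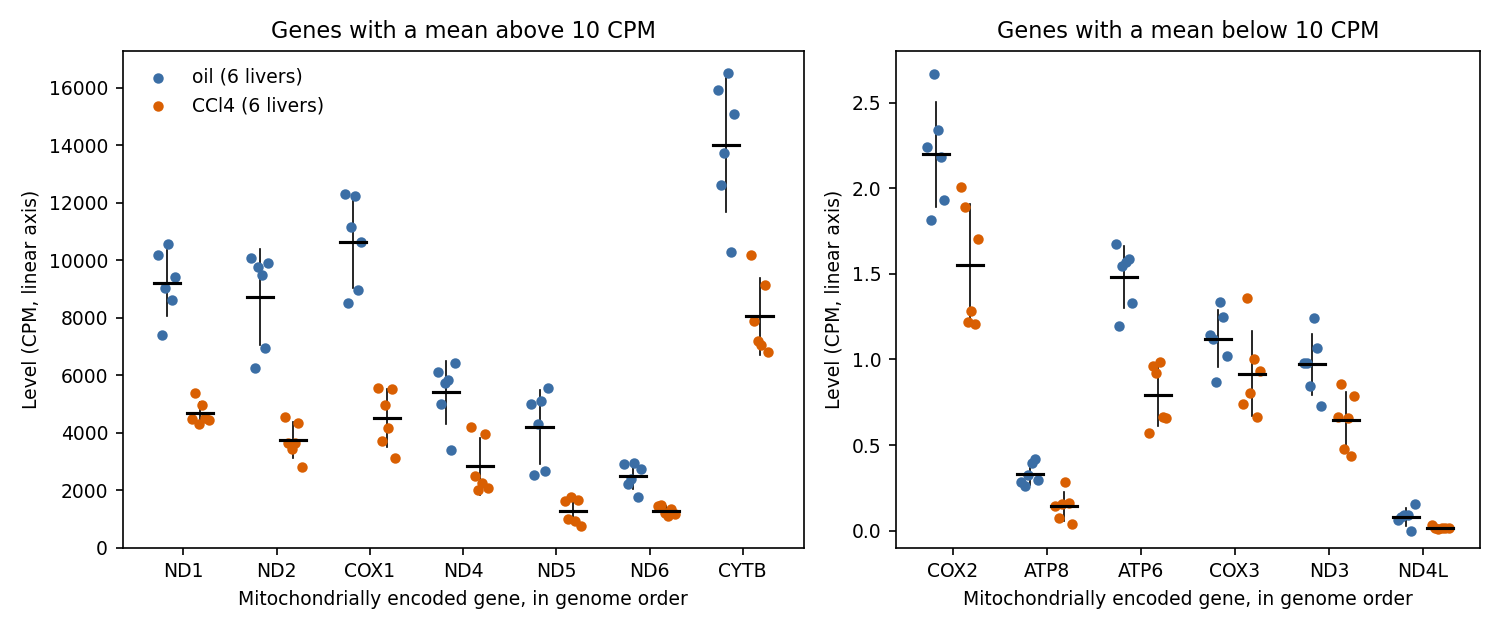
Level in CPM (linear axes) of the 13 mitochondrial genes in each of 6 oil and 6 CCl4 livers, with the mean (horizontal line) and SD (vertical line). In the left panel ND4 is the one gene whose groups overlap, and all genes of the right panel stay under 3 CPM.

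The 6 sparse genes were counted at few reads and are given for completeness. ATP6, the proton-channel subunit of ATP synthase, had 422 counts in all oil livers together and 327 in CCl4. It ran from 1.2 to 1.67 CPM in oil and from 0.568 to 0.987 CPM in CCl4, without overlap (log2 fold change -0.90 ± 0.19, adjusted p = 0.00205). ATP8, a stalk subunit, had 93 and 59 counts and overlapped between the groups (-1.19 ± 0.36, adjusted p = 0.0186). ND3 (-0.59 ± 0.22, adjusted p = 0.0464) and COX2 (-0.50 ± 0.18, adjusted p = 0.0404) overlapped too and lost the call in 12 of 23 and in 10 of 24 alternative settings. COX3 did not pass (-0.29 ± 0.21, adjusted p = 0.276), but passed in the fit with the length covariate (-0.51, adjusted p = 0.0472). ND4L, with 25 counts in oil and 7 in CCl4, was too low to be tested.

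Summed over the 13 genes, the mitochondrial level ran from 42664 to 62717 CPM in oil and from 21256 to 32100 CPM in CCl4, so that no CCl4 liver reached the lowest oil liver. The means were 54740 ± 8960 and 26430 ± 4090 CPM (SD, n = 6 each). The summed nuclear level did not separate in this way: it ran from 10067 to 16253 CPM in oil and from 8585 to 19029 CPM in CCl4. Its highest values were in CCl4 livers 6, 2 and 4 (19029, 15724 and 15336 CPM) and in oil liver 5 (16253 CPM), the same 4 livers with the lowest length slopes. The ratio of mitochondrial to nuclear levels ran from 2.63 to 5.94 in oil and from 1.12 to 3.56 in CCl4 and overlapped.

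Gene by gene, the median nuclear subunit gene stood above the oil mean by 0.44 to 0.83 on the log2 scale in CCl4 livers 2, 4 and 6, and below it in livers 1, 3 and 5 (-0.41, -0.15 and -0.55). Over all other tested genes with transcripts under 1500 bases the same livers stood at 0.40 to 0.75 and at -0.09 to 0.15. The median mitochondrial gene was below the oil mean in each CCl4 liver, from -1.09 to -0.79.

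**Figure D3:**
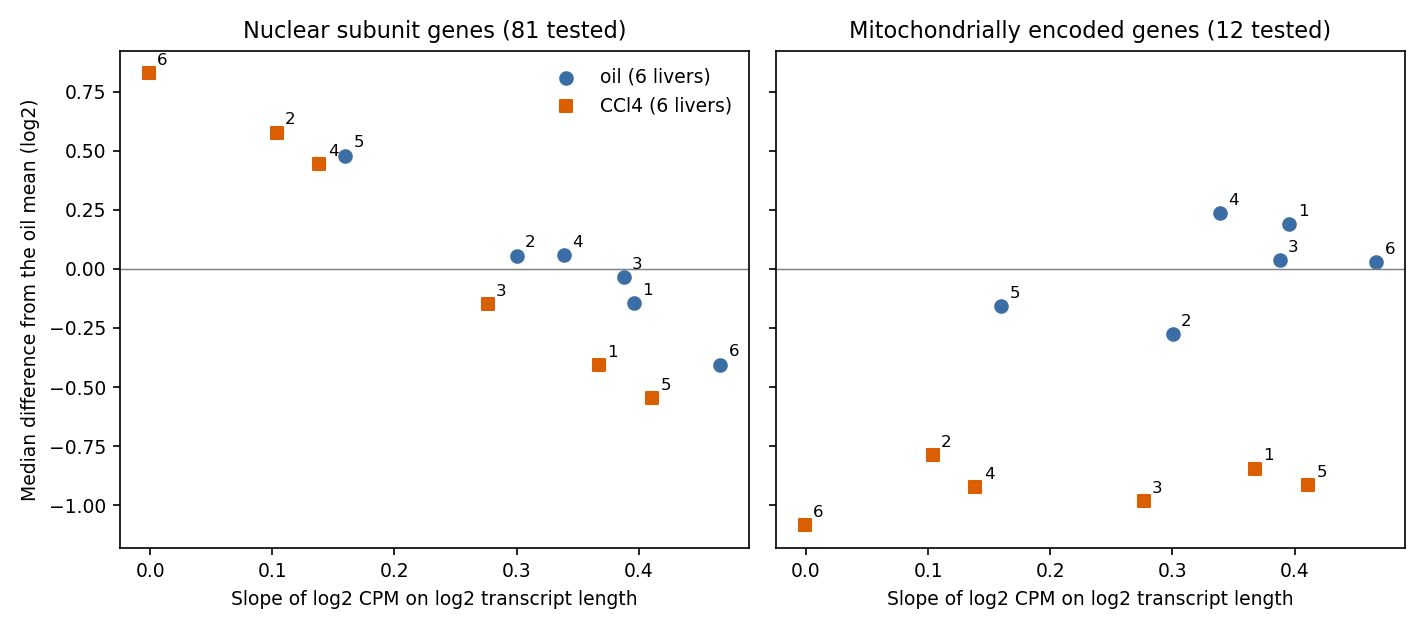
Each point is a liver, numbered by replicate. The x axis is the slope of log2 CPM on log2 transcript length over genes, and the y axis is the median log2 difference of the subunit genes from their oil mean. The nuclear median is highest, 0.83, at the lowest slope and stands at -0.55 and -0.41 at the 2 highest slopes, while the mitochondrial median of all 6 CCl4 livers lies between -1.09 and -0.79.

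The result for the nuclear genes depends on how this length trend is treated. When each library's slope was added to the fit as a covariate, 55 of the 81 genes tested fell and 3 rose, with a median of -0.31, where over all genes 44.7% were called (22.7% fallen and 22.0% risen). With a smooth length trend removed from each library, 30 fell and 3 rose (median -0.20, against 23.4% fallen and 20.7% risen over all genes). Without the 4 livers of lowest slope, an alternative added after the data were seen, 21 fell and 2 rose (median -0.31). Over all 16559 genes of that fit the median was 0.01, and over the 24 alternatives 2022 to 4342 of all genes tested fell. The share of all genes fallen in that fit alone is not given here, so its 21 falls are a description. With oil and CCl4 differing in slope (means 0.34 and 0.22), which of these accounts belongs to the treatment cannot be told apart. Of the mitochondrial genes, sparse ones among them, 9 to 12 fell and 0 rose over the 24 alternatives run, these fits included.

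Length also divided the nuclear genes without a length term. All 6 that fell were among the 16 with transcripts of at least 1500 bases (median -0.22). Each length is that of 1 annotated transcript, which need not be the form present in liver. For Atp5g1, among the 16 and not called, that transcript (4715 bases) is longer than the RefSeq span of the gene (chr11:96072793-96075694). Of the 65 tested with shorter transcripts, 0 fell and 3 rose with edgeR (median 0.23). At an unadjusted p of 0.05, 1 of them fell, and 0 fell with DESeq2 and 1 with limma-voom. Of all 2875 tested genes with transcripts under 1500 bases, 786 rose and 296 fell (median 0.30). Of all 11969 with transcripts of at least 1500 bases, 2349 rose and 2433 fell (median -0.05).

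**Figure D4:**
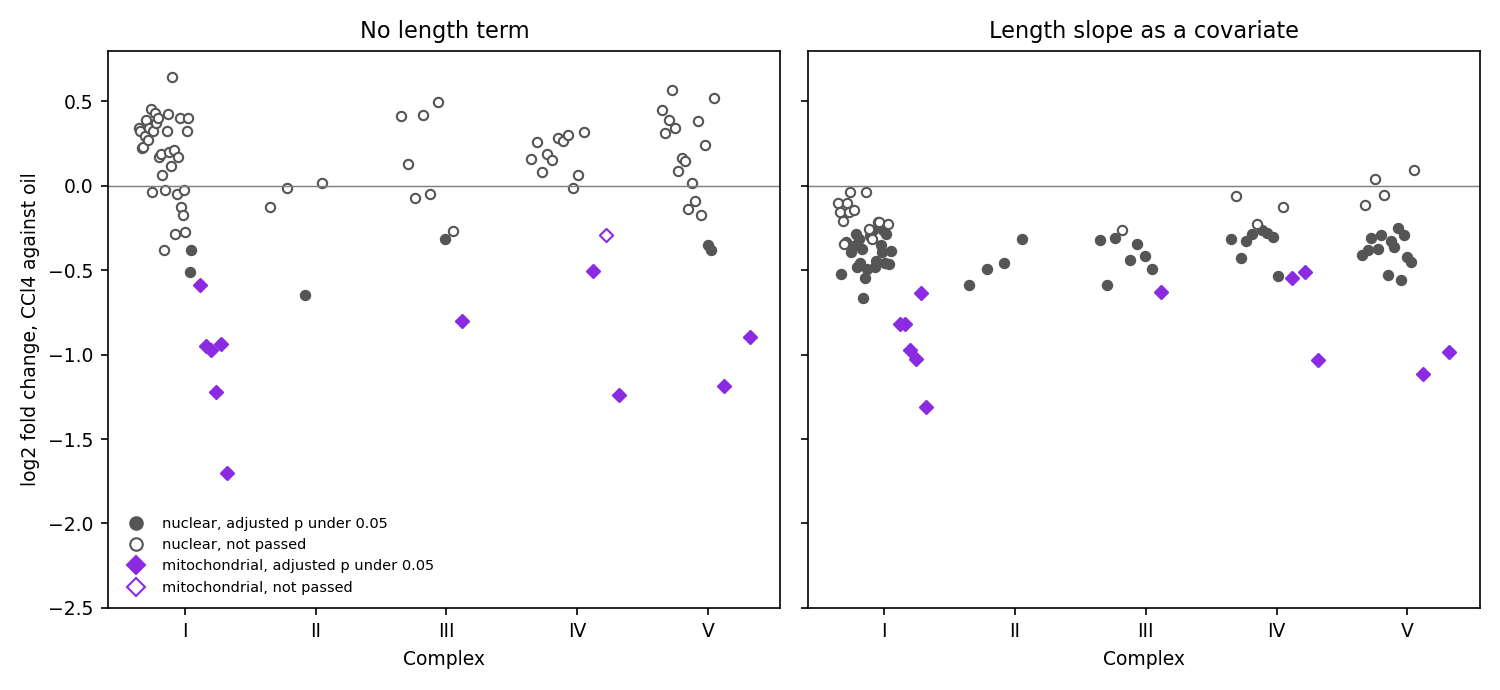
Log2 fold change of each tested subunit gene by complex, tissue isoforms of complex IV left out, without (left) and with (right) the length slope as a covariate; circles are nuclear and diamonds mitochondrial genes, filled where the adjusted p is under 0.05, with no error bars. Nuclear genes lie on both sides of 0 on the left, and 75 of 77 lie below 0 on the right.

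In complex I, the nuclear genes for the 7 core subunits of the matrix arm, which carry flavin and iron-sulfur clusters, had a median log2 fold change of -0.27, and 1 of 7 fell. With the length covariate all 7 fell. Ndufs1, the largest of them (chr1:63143592-63176822), ran from 137 to 165 CPM in oil with a median of 148 CPM, and from 105 to 129 CPM in CCl4 with a median of 113 CPM. The groups did not overlap (-0.38 ± 0.10, adjusted p = 0.00868), and the call was lost with upper-quartile scaling (adjusted p = 0.062). The 30 supernumerary subunits chosen, which surround the core, had a median of 0.28, and 1 fell, Ndufa10 (chr1:92439486-92473825). It ran from 123 to 148 CPM in oil and from 78.5 to 115 CPM in CCl4, without overlap (-0.51 ± 0.12, adjusted p = 0.00384). Ndufa4, now known as a complex IV subunit but named for complex I, was the highest Nduf gene. It ran from 233 to 590 CPM in oil (median 349 CPM) and from 225 to 812 CPM in CCl4 (median 441 CPM). The groups overlapped widely, and the estimate changed sign with the length covariate, from 0.32 (adjusted p = 0.429) to -0.36 (adjusted p = 0.00973).

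Complex II, succinate dehydrogenase, is encoded by nuclear genes alone and is also an enzyme of the citric acid cycle. Sdha, its flavoprotein (chr13:74322255-74350240), ran from 370 to 555 CPM in oil with a median of 517 CPM, and from 235 to 409 CPM in CCl4 with a median of 304 CPM. CCl4 livers 5 (409 CPM) and 1 (385 CPM) stood above oil liver 5 (370 CPM), and the others of CCl4 below all oil livers. The gene fell (-0.65 ± 0.15, adjusted p = 0.00458). Sdhb, the iron-sulfur subunit (-0.13 ± 0.23, adjusted p = 0.687), and the membrane anchors Sdhc (0.02 ± 0.19, adjusted p = 0.95) and Sdhd (-0.01 ± 0.24, adjusted p = 0.973) did not pass. With the length covariate all 4 genes fell, by 0.31 to 0.59 on the log2 scale.

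Promoter sequence is shown for Sdha, the nuclear subunit gene of lowest log2 fold change, and for Cox6a1, a common complex IV isoform that did not pass. Both hold the motif GCGCANGCG of NRF1, a transcription factor known for respiratory genes. Each is the 250 bases before the annotated start, 5′ to 3′ on the strand of the gene, from RefSeq on GRCm38.p6 (chr13:74350241-74350490 and chr5:115348959-115349208, both minus strand). Capitals mark matches to GCGCANGCG and, in Cox6a1, to the ETS motif CCGGAAG, which lies on the other strand and reads CTTCCGG.
Sdha: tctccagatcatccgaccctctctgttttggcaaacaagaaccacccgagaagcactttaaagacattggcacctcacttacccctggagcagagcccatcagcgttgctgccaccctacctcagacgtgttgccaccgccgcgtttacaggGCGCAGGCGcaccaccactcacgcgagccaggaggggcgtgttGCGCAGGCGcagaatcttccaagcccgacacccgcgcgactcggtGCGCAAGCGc
Cox6a1: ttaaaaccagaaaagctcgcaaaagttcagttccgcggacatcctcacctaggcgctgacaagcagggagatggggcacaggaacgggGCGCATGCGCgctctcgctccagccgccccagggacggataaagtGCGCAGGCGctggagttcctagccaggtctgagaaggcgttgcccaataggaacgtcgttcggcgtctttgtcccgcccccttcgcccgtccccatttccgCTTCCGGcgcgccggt
RefSeq windows from 250 bases before to 50 after the start were matched by symbol for 69 of the 84 nuclear genes (74 windows), and both strands were searched. The NRF1 motif was in 28.4% of these windows and in 8.79% of the 20702 windows of all genes. The ETS motif was in 23.0% against 11.7%, the YY1 motif AAGATGGCG in 9.46% against 1.88%, and the ERR motif TCAAGGTCA in 2.7% against 0.338%. The motifs were counted apart, so that a window can hold several, and NRF1 matches on the 2 strands can overlap. A match is a string of letters in the reference, not a measured site.

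In complex III, Uqcrc1, a large core protein (chr9:108936648-108949641), ran from 249 to 328 CPM in oil with a median of 275 CPM, and from 199 to 268 CPM in CCl4 with a median of 221 CPM. The highest CCl4 livers lay within the oil range, and the gene fell narrowly (adjusted p = 0.0423) and lost the call in 13 of 24 alternatives. Uqcrc2, the other core protein, ran from 253 to 360 CPM and from 189 to 313 CPM and did not pass (-0.27 ± 0.15, adjusted p = 0.162). The 5 small subunits had a median of 0.41, and 0 of them passed with edgeR, at an unadjusted p of 0.05, with DESeq2 or with limma-voom. Uqcrq, the highest by level of the nuclear genes chosen for the complex, ran from 200 to 562 CPM in oil and from 172 to 917 CPM in CCl4, with the 3 highest CCl4 values in livers 6, 2 and 4 (917, 566 and 522 CPM). With the length covariate 7 of the 8 nuclear genes chosen for complex III fell.

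In complex IV, 0 of the 10 common isoforms passed edgeR without the length covariate (median 0.17), likewise 0 at an unadjusted p of 0.05, with DESeq2 and with limma-voom. With the covariate 8 fell. Cox4i1, the common form of the regulatory subunit that binds ATP (chr8:120668225-120674209), ran from 341 to 691 CPM in oil with a median of 482 CPM, and from 331 to 1038 CPM in CCl4 with a median of 567 CPM. The groups overlapped (0.30 ± 0.28, adjusted p = 0.399), and with the length covariate the log2 fold change was -0.28 (adjusted p = 0.0337). Cox6a1 (0.19 ± 0.25), Cox6b1 (0.16 ± 0.22), Cox7a2 (0.26 ± 0.26) and Cox8a (0.08 ± 0.25) also overlapped, and each of them was lower by 0.26 to 0.43 with the covariate. Cox7a2l, which links complexes III and IV into supercomplexes, did not pass in either fit (0.32 ± 0.23, adjusted p = 0.29, and -0.13, adjusted p = 0.161).

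The tissue isoforms replace these common forms elsewhere: Cox4i2 in lung and in vessel-associated cells, Cox6a2, Cox7a1 and Cox8b in striated muscle, and Cox6b2 in testis. Cox4i2 (chr2:152753916-152765039) had 1 to 4 counts in each oil liver and 31 to 74 in each CCl4 liver. That is 0.0234 to 0.104 CPM in oil (median 0.0533 CPM) and 0.411 to 1.35 CPM in CCl4 (median 0.613 CPM), without overlap, where 12% of all genes tested had all CCl4 livers above all oil livers. Oil held 17 counts in all, so that the gene entered the test only through the group where it is high; its fitted log2 fold change, 3.50, depends on the prior count and is a description, with no test. The RefSeq span of Cox4i2 overlaps that of Bcl2l1 by 6308 bases, and Bcl2l1 went from 33.5 to 46.2 CPM (log2 fold change 0.46, adjusted p = 0.0146). The summed stellate and mural cell markers were higher in each CCl4 liver (403 to 585 CPM, against 69.6 to 138 CPM), with Col3a1 the largest (mean 254 CPM in CCl4). Of the 9 markers tested, 7 rose, while Rgs5 (0.09, adjusted p = 0.811) and Notch3 (0.47, adjusted p = 0.361) did not pass. Cspg4 was too low to be tested. The part of these cells in the level of Cox4i2 was not tested.

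Cox6a2 (chr7:128205435-128206366) had 0 to 4 counts in each oil liver and 27 to 339 in each CCl4 liver. Its level ran from 0 to 0.0702 CPM in oil (median 0.0247 CPM) and from 0.423 to 5.35 CPM in CCl4 (median 1.11 CPM), without overlap. With 10 counts in oil in all, it too entered the test only through CCl4, and its fitted log2 fold change of 5.59 is a description. CCl4 liver 1 held the highest value, 5.35 CPM, and liver 3 the next, 1.70 CPM. The summed level of 14 muscle markers was 357 CPM in CCl4 liver 1 and 68.0 CPM in CCl4 liver 3, and 1.15 to 3.30 CPM in the other CCl4 livers and 0.787 to 2.10 CPM in oil. In those other 4 CCl4 livers Cox6a2 was 0.423 to 1.24 CPM, above every oil liver. Of the 2 muscle markers tested, Tnni2 was higher in every CCl4 liver (lowest 0.225 CPM) than in any oil liver (highest 0.187 CPM). With 28 counts in oil in all, Tnni2 too entered the test only through CCl4. The other, Mylpf, overlapped (0.617 to 1.08 CPM in oil, lowest 0.371 CPM in CCl4). So did the rest of the 14 markers, and Acta1, Myh1, Myh2, Myh4, Tnnt3 and Mb went down to 0 CPM in CCl4. The part of muscle RNA in the level of Cox6a2 was not tested. Without CCl4 liver 1 the log2 fold change of Cox6a2 was 4.82. Cox8b was too low to be tested and ran from 0 to 2.32 CPM in CCl4, again highest in livers 1 and 3 (147 and 78 counts). Cox7a1 did not pass (0.33 ± 0.29, adjusted p = 0.377).

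Cox6b2 (chr7:4751792-4753094) ran from 0.185 to 0.416 CPM in oil and from 0.252 to 1.18 CPM in CCl4. The groups overlapped and the gene rose (1.28 ± 0.35, adjusted p = 0.0116). Without the 4 livers of lowest slope the call was lost (adjusted p = 0.0827). The summed level of testis markers was at most 0.055 CPM in every liver. Cox7b2 and Cox8c had 0 counts in all 12 livers.

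**Figure D5:**
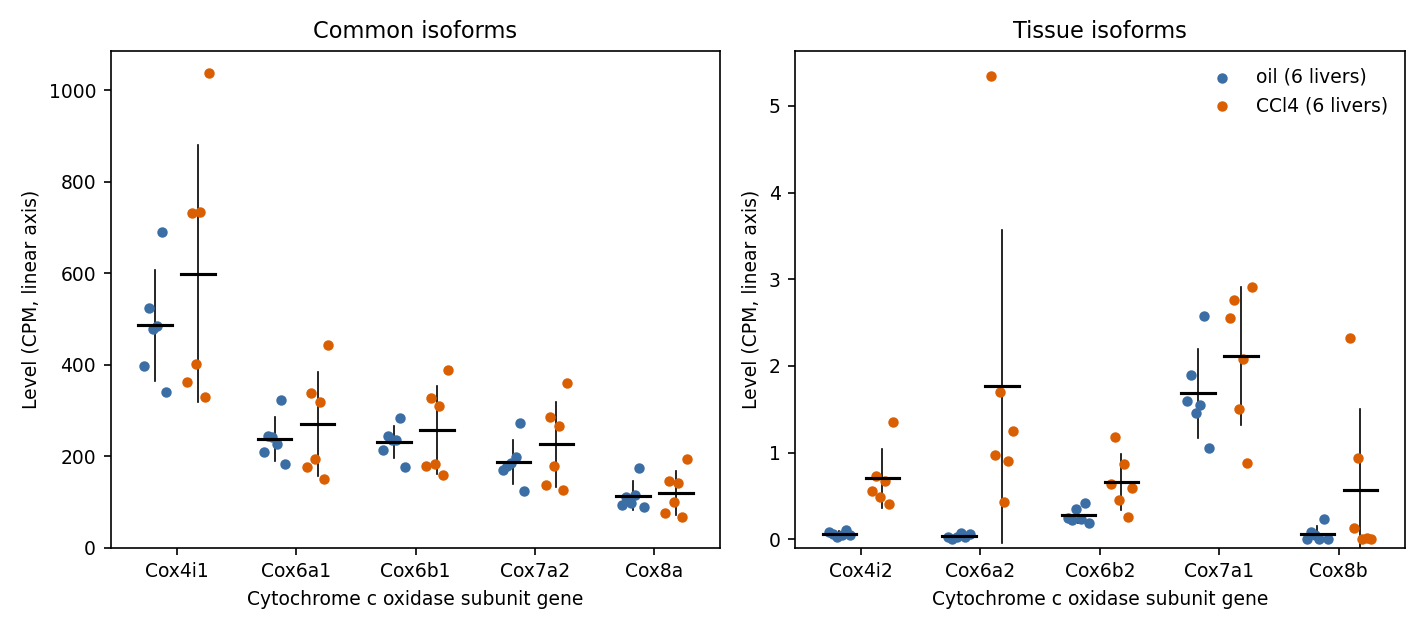
Level in CPM (linear axes) of common (left) and tissue (right) isoforms of complex IV in 6 oil and 6 CCl4 livers, with the mean (horizontal line) and SD (vertical line, ended by the axis where it passes below 0). Cox4i2 and Cox6a2 have no overlap between the groups, and the highest Cox6a2 and Cox8b points, 5.35 and 2.32 CPM, are both CCl4 liver 1.

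Of the 5 nuclear genes of the catalytic head of complex V, 2 fell. Atp5b, the catalytic beta subunit (chr10:128083307-128090388), ran from 1134 to 1397 CPM in oil with a median of 1249 CPM, and from 894 to 1184 CPM in CCl4 with a median of 946 CPM. CCl4 liver 4 was the one CCl4 liver within the oil range (-0.35 ± 0.11, adjusted p = 0.0201). Atp5a1, the alpha subunit, ran from 990 to 1196 CPM and from 684 to 967 CPM, without overlap (-0.38 ± 0.11, adjusted p = 0.0153). With upper-quartile scaling both calls were lost (adjusted p = 0.103 for Atp5b and 0.0758 for Atp5a1). The other 3 head genes did not pass. The peripheral stalk (4 genes, median 0.05), the c-ring (3 genes, median 0.17) and the small membrane subunits (5 genes, median 0.38) held 0 called genes with edgeR, DESeq2 or limma-voom, and 1 c-ring gene, Atp5g1, at an unadjusted p of 0.05. With the length covariate all 5 head genes and all 4 stalk genes fell, 1 of 3 c-ring genes and 3 of 5 small membrane subunits.

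Genes that assemble and serve the chain were taken from lists, whose counts stand against 20.6% risen and 18.4% fallen over all genes tested. Of 15 assembly factors of complex I tested, 2 fell and 0 rose (median -0.02). They were Ecsit, which went from 49.7 ± 2.73 to 32.8 ± 2.91 CPM (SD, n = 6 each; log2 fold change -0.60, adjusted p = 0.000259), and Ndufaf1 (-0.45, adjusted p = 0.00451). Of 10 factors for complexes II and III, 1 fell, Bcs1l, which inserts the Rieske protein (-0.37, adjusted p = 0.0232). Of 23 factors for complex IV, 5 fell and 1 rose (median 0.09). The copper chaperone Sco2 went from 86.7 ± 13.8 to 45.6 ± 10.6 CPM (-0.93, adjusted p = 0.000719), Taco1, the activator of COX1 translation, had -0.54 and Surf1 had -0.50. The other calls, named after their values were seen, were Coa5 and Cox15 (fallen) and Coa3 (risen). Of 5 genes for ATP synthase assembly and inhibition, 1 passed: Atpif1, the inhibitor of ATP synthase, rose from 16.1 ± 4.12 to 45.8 ± 24.3 CPM (1.51, adjusted p = 0.00178, and 0.82 with the length covariate). These counts too changed in the fit with the length covariate. There 7 of the 15 factors of complex I fell, and 5 of the 10 for complexes II and III, and 0 rose. Of the 23 for complex IV 7 fell and 1 rose, and of the 5 for ATP synthase 2 fell and 1 rose. Over all genes that fit called 22.7% fallen and 22.0% risen.

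Of 24 electron carriers and exchangers tested, 5 rose and 5 fell without a length term (median 0.15), shares close to those over all genes (20.6% and 18.4%). Slc25a4, an ADP/ATP exchanger typical of muscle and heart, rose from 5.23 ± 0.897 to 19.7 ± 5.41 CPM (1.92, adjusted p = 4.18e-06). Coq8a and Coq8b, related kinase-like proteins of coenzyme Q synthesis, moved apart. Coq8a fell from 520 ± 117 to 160 ± 26.6 CPM (-1.70, adjusted p = 4.81e-06), and Coq8b rose from 19.4 ± 2.17 to 41.7 ± 5.33 CPM (1.11, adjusted p = 9.27e-06). The others called, named after their values were seen, were Ucp2, Ndufa4l2 and Pdss1 (risen) and Etfdh, Coq5, Pdss2 and Slc25a5 (fallen). The counts of this list changed with the length covariate, to 6 risen and 12 fallen of 24 (median -0.23). Over all genes that fit called 22.0% risen and 22.7% fallen.

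Of 31 genes that transcribe, copy or process mitochondrial nucleic acid, 6 fell and 0 rose (median -0.14), a share of falls close to the 18.4% over all genes. Among them were Grsf1, an RNA-binding protein of mitochondrial RNA granules (108 ± 7.27 to 74.5 ± 7.25 CPM, -0.53, adjusted p = 0.00101), Prorp, which cuts the 5′ ends of tRNAs from the precursor (-0.48, adjusted p = 0.00771), and Tfb2m, a transcription factor of the organelle (-0.45, adjusted p = 0.0161). Of 18 nuclear regulators of respiratory genes, 8 fell and 0 rose (median -0.51), including Ppard (-2.01, adjusted p = 0.00277) and Sirt1 (-0.64, adjusted p = 0.00512). Another of the 8, Esrrg, an estrogen-related receptor, went from 2.88 ± 1.46 to 0.116 ± 0.125 CPM. At that CCl4 level it passed the filter on low counts through the oil group, where it is high. Its fitted log2 fold change, -4.60, is a description and no support for a fall. Of 17 genes of the citric acid cycle and pyruvate dehydrogenase, 7 fell and 0 rose (median -0.33), among them Idh3b (-0.61, adjusted p = 0.00127), Pdha1 (-0.51, adjusted p = 0.000845) and Dlat (-0.47, adjusted p = 0.0018). With the length covariate 13, 8 and 11 genes of these lists fell, where 22.7% of all genes fell, and 1 regulator rose, Perm1, named after its value was seen (1.38, adjusted p = 0.0185). In these 3 lists 1, 1 and 0 genes rose at an unadjusted p of 0.05, 1, 1 and 0 with DESeq2 and 2, 0 and 1 with limma-voom. In the list for complex I the risen were 1 at an unadjusted p of 0.05, 0 with DESeq2 and 1 with limma-voom.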

How the data were processed

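Whole-liver total RNA of 12 mice was made into stranded total RNA libraries, per the labels' protocols. The authors deposited whole-number read counts per gene, without normalisation. The genome build was GRCm38, per the submitters' processing notes. The aligner, counter, annotation and strand setting were not given in the sources used here.

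Names came from RefSeq on GRCm38.p6, and transcripts and lengths from GENCODE M21. IDs without a name took 2.2% of counts. Every pair of replicates differed beyond sampling noise (lowest chi-square per gene 53.4). The spans of 13 subunit genes overlap another tested protein-coding gene, 5 of them named here (Atp5a1, Cox4i2, Cox7a2, Uqcrc2 and Uqcrq).

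The main test was edgeR 4.0.16 (R 4.3.3) after filterByExpr and TMM scaling, CCl4 against oil, 6 against 6, with no covariate. Alternatives used DESeq2 1.42.0, limma 3.58.1, other scalings and filters, length terms and left-out libraries. The scripts were tested on simulated data. Members and lists were chosen with earlier results of these data known. Named genes were the mitochondrial genes, Sdha to Sdhd, the complex IV isoforms, and by complex the 2 smallest p and the highest level, with up to 3 genes of smallest p per list; exceptions are marked.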

Additional observations from a re-analysis of the deposited data

Results flagged for a closer look

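In 8 of 76 groups of 6 livers, 1 liver stood far from the nearest other, a distance that chance gives in about 1 in 20 groups. In 4 of them the liver was oil liver 5, the oil liver of lowest length slope: Cox8a at 174 CPM (next 116 CPM), Uqcrq at 562 CPM (next 321 CPM) and Cox8b at 0.234 CPM (next 0.0798 CPM) were highest there, and Sdha at 370 CPM (next 490 CPM) was lowest. In CCl4, Cox6a2 was highest in liver 1 at 5.35 CPM (next 1.70 CPM), and ND4L, of 1 or 2 counts in each CCl4 liver, at 0.0316 CPM (next 0.0183 CPM). Cox4i2 was highest in CCl4 liver 6 at 1.35 CPM (next 0.724 CPM), and Atp5b in CCl4 liver 4 at 1180 CPM (next 983 CPM).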

How the results depend on the processing

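Over 24 alternatives the mitochondrial genes called as fallen, sparse ones among them, numbered 9 to 12 and those risen 0. The median log2 fold change of the mitochondrial genes stayed between -1.27 (length trend removed) and -0.82. The number of nuclear genes fallen was 2 with upper-quartile scaling, 55 with the length covariate (median -0.31), 30 with the length trend removed and 21 without the 4 livers of lowest slope (median -0.31), the last chosen after seeing the data. Over all genes tested, those fallen numbered 2022 to 4342 over the same 24 alternatives. The number for the fit without the 4 livers is not given apart, so its 21 falls are a description. The number of nuclear subunit genes risen was 0 with a filter of 50 counts in 6 libraries, which removes the low isoforms. Leaving out each liver gave 9 to 11 mitochondrial falls (median -1.02 to -0.89), 5 to 7 nuclear falls and 3 to 4 rises (median 0.03 to 0.31). Upper-quartile scaling raised the share of rises among all calls from 52.8% to 67.3% and the median of all genes from 0.01 to 0.13. The length covariate turned the sign for Sdhc (-0.31), Cox4i1 (-0.28), Cox6a1 (-0.33), Cox6b1 (-0.28), Cox7a2 (-0.26), Cox8a (-0.43), Ndufa4 (-0.36) and Uqcrq (-0.34), and with the length trend removed for Cox6a1 (-0.27), Cox6b1 (-0.28) and Cox8a (-0.36). The cause was not tested. Genes under about 1 CPM rest on few counts. No paired analysis was possible because the labels give the groups no shared replicate numbers.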

Other observations

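Genes that shape and supply the organelle were also measured, against 20.6% risen and 18.4% fallen over all genes tested. Of 18 genes of protein import and membrane shape tested, 4 fell and 0 rose (median log2 fold change -0.16), while 2 rose at an unadjusted p of 0.05, 0 with DESeq2 and 2 with limma-voom. Those that fell were the fusion GTPases Opa1 (96.6 ± 4.94 CPM in oil and 61.7 ± 4.82 CPM in CCl4, SD, n = 6 each, -0.65, edgeR adjusted p = 0.000118) and Mfn2 (-0.97, adjusted p = 0.00235), the chaperonin Hspd1 (-0.51, adjusted p = 0.00454) and the cristae protein Immt, named after its value was seen (-0.36, adjusted p = 0.00513). Of 12 genes of mitophagy and mitochondrial proteases, 2 fell and 1 rose (median -0.12). Clpx, the unfoldase of the matrix protease ClpXP, fell from 362 ± 40.4 to 154 ± 21.8 CPM (-1.24, adjusted p = 6.61e-06) and Afg3l2, of the inner-membrane protease, by less (-0.41, adjusted p = 0.0327). Fundc1, a mitophagy receptor, rose (0.64, adjusted p = 0.0361) and did not pass with the length covariate (adjusted p = 0.0672). In the fit with that covariate 10 of the 18 import and shape genes fell (median -0.30), and 7 of the 12 of mitophagy and proteases (median -0.34). There 0 genes of these 2 lists rose, where over all genes 22.7% fell and 22.0% rose.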
